A study of Triticum turgidum subsp. durum with 32 samples.

Results

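The loci described here are 7 wheat genes of gibberellin (GA) metabolism, the GA 20-oxidase genes GA20ox-A1, GA20ox-B2, GA20ox-A4 and GA20ox-B4 and the GA 2-oxidase genes GA2ox-A6, GA2ox-A11 and GA2ox-B11. They were found by transcript identifier among 150754 transcribed loci, and each identifier named a single locus. The study listed them as hormone genes because their reads differed between phyB-null and wild-type leaves in both of its experiments, and did not differ in both experiments of phyC-null. Their values in those contrasts are therefore given as a description of how far and how evenly they differed, and not as independent evidence that they did. The comparisons between experiments within a genotype and the differences of a genotype effect between experiments were not criteria of that choice. They reuse its libraries, however, and a call in both PHYB experiments limits how far the effects there can differ. Their values are therefore not independent of it. The sister wild types share the PHYB wild-type libraries with it.

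The plants were Kronos, a tetraploid durum wheat with an A and a B genome (Triticum turgidum subsp. durum). The phyB-null line carried premature stop mutations in PHYB-A and PHYB-B, selected from a mutagenized population, backcrossed to Kronos and intercrossed, and the phyC-null line lacked both functional PHYC homoeologues. Each null line was compared with its own wild-type sister, called PHYB wild type or PHYC wild type. RNA was taken in the morning from the third leaf, which was fully extended, of plants 4 weeks old. The plants were grown under 16 h of light and 8 h of darkness, with no other treatment. Each line and genotype was grown in 2 experiments with 4 biological replicates, which gives 8 groups of 4 libraries and 32 libraries in all, and each null is a single line. The PHYB and PHYC experiments were run separately, so that line and run cannot be told apart. The PHYB experiments followed each other in 1 chamber, whereas the PHYC experiments used chambers with different ballasts. The libraries held 15961572 to 47695062 counted reads. Replicates 3 and 4 of phyB-null in experiment 2 were far closer to each other than any other pair of a group (chi-square of their counts 1.36 per locus, the next lowest pair 4.51), and all 7 loci were still called in that experiment without either of them. Counting error alone would give about 1 per locus, so whether these replicates were separate plants cannot be told from the counts. The SDs, SEs and tests of that group treat them as separate. PHYB-A itself was at 396 ± 43.0 normalized counts (SD, n = 4) in PHYB wild type and 167 ± 19.5 in phyB-null in experiment 1, and it was lower in both PHYB experiments (log2 fold change -1.26 and -1.18, edgeR adjusted P = 6.16e-05 and 2.38e-05). In the phyC-null line it did not pass the test (0.16 and -0.12).

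Gibberellins are plant hormones that promote stem and leaf elongation. GA 20-oxidases oxidize the precursors from which bioactive gibberellins are made, and they are often rate limiting for synthesis. GA 2-oxidases inactivate bioactive gibberellins and their precursors. Phytochromes are red and far-red light receptors. PHYB is known from Arabidopsis and rice as the main receptor through which shade changes elongation growth, and gibberellin metabolism is one of the pathways through which phytochromes act. Bread and durum wheats carry A and B copies of most genes, called homoeologues. GA20ox-A4 and GA20ox-B4 are such a pair, and so are GA2ox-A11 and GA2ox-B11. The other members were listed in 1 genome only.

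Positions are those of the IWGSC version 2.2 assembly on which the reads were counted, given from 1, and a locus spans introns as well as exons. GA20ox-A1 (Traes_4AL_FABDF4EDA) lies on chromosome arm 4AL, scaffold 7121068, bases 97 to 2142. GA20ox-B2 (td-k51_contig_72276) lies on chromosome 3B, bases 622838472 to 622841712. GA20ox-A4 (Traes_1AL_3A716350F) lies on arm 1AL, scaffold 3930032, bases 1 to 2818, so that it begins at the first base of its scaffold. GA20ox-B4 (Traes_1BL_32506F819) lies on arm 1BL, scaffold 3885888, bases 2352 to 6000. GA2ox-A6 (Traes_2AL_BA387175F) lies on chromosome 2A, bases 209913611 to 209915875. GA2ox-A11 (Traes_4AS_7DC625FF5) lies on chromosome 4A, bases 5910872 to 5912049, and GA2ox-B11 (Traes_4BL_63EFE8C91) on arm 4BL, scaffold 6825260, bases 6887 to 8059. There are 5 other counted loci on the same scaffolds or within 20000 bases. The nearest is Traes_1BL_BCA1AABF7, a fragment of 479 bases annotated as GA20ox2-like, which ends 9 bases before GA20ox-B4 begins. Both may be parts of 1 gene, which was not tested. No exon structure was used here, and the reads carry no strand, so an overlapping antisense transcript could not be separated.

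In the phyB-null leaves the GA 20-oxidases were far above their wild-type sisters, and GA20ox-B2 was the highest of them. Levels are normalized counts, meaning reads divided by a median-of-ratios factor over the 32 libraries. For GA20ox-B2 the PHYB wild-type libraries of experiment 1 held 8.58, 9.32, 12.2 and 17.8 normalized counts, and the phyB-null libraries held 1618, 1627, 1297 and 1607. In experiment 2 the wild-type libraries held 20.8, 19.1, 22.7 and 21.5, and the null libraries 2770, 2470, 2655 and 2488. Every null library was above every wild-type library, the lowest null library being 72.7 times the highest wild-type library in experiment 1 and 109 times in experiment 2. The fitted change was 126-fold in experiment 1 (log2 fold change 6.98 ± 0.20, SE) and 123-fold in experiment 2 (6.94 ± 0.13), ranks 31 of 81246 and 33 of 82640 loci from the highest. In bulk leaf RNA more cells that express a gene and more RNA per cell cannot be told apart.

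Of the 4 listed GA 20-oxidases GA20ox-A1 had the highest level per kilobase in wild-type leaves and the smallest fold change in phyB-null. Its PHYB wild-type libraries held 30.7, 25.6, 35.8 and 51 normalized counts in experiment 1, against 293, 322, 387 and 343 in phyB-null. In experiment 2 the wild-type libraries held 133, 64.2, 92.6 and 74.2, and the null libraries 327, 420, 390 and 372. The groups did not overlap in either experiment. The null libraries of the 2 experiments overlapped each other, while the wild-type libraries of experiment 2 lay above those of experiment 1. The fitted change was 9.33-fold (log2 3.22 ± 0.19) in experiment 1 and 4.17-fold (2.06 ± 0.20) in experiment 2.

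GA20ox-A4 was almost silent in PHYB wild type. Its wild-type libraries held 0, 1, 5 and 1 reads in experiment 1 and 3, 7, 11 and 1 in experiment 2. In phyB-null it held 86.4, 67.0, 97.7 and 72.2 normalized counts in experiment 1 and 275, 470, 220 and 202 in experiment 2. The groups did not overlap, and replicate 2 of the null stood above the other null libraries of experiment 2. The log2 fold change was 5.31 ± 0.40 and 5.97 ± 0.48 in experiments 1 and 2.

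GA20ox-B4, the homoeologue of GA20ox-A4, held 1, 0, 1 and 2 reads in the wild-type libraries of experiment 1 and 15, 5, 24 and 6 in those of experiment 2. The null libraries held 105, 146, 134 and 39.5 normalized counts in experiment 1 and 231, 453, 161 and 174 in experiment 2. Again no libraries overlapped, and again replicate 2 was the highest null library of experiment 2. The log2 fold change was 6.44 ± 0.61 and 4.58 ± 0.52. The first of these rests on 4 wild-type reads in all, for which the ratio of summed reads, scaled by the libraries' factors, was 98.1, with an exact 95% counting interval of 38.1 to 361.

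**Figure D1:**
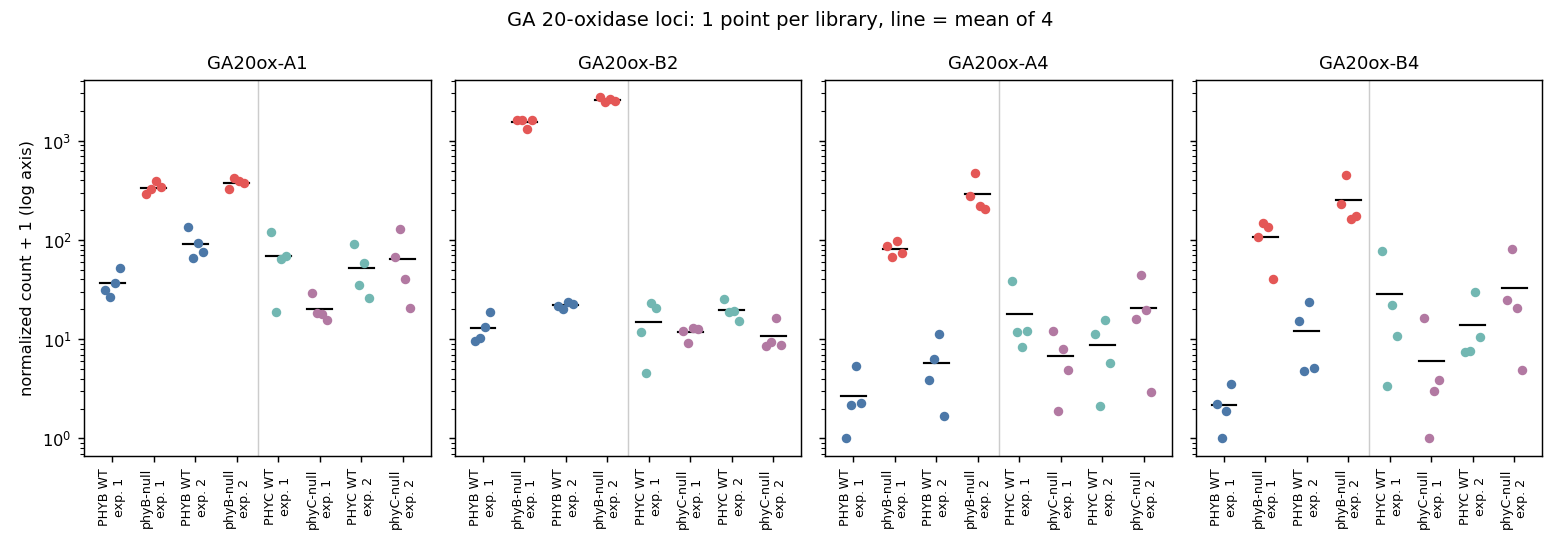
Normalized count plus 1 (log axis) of the 4 GA 20-oxidase loci in each of the 32 libraries, by group; each point is 1 library and the line is the mean of 4. In the PHYB experiments all phyB-null points lie above all wild-type points, with GA20ox-B2 means of 1537 and 2596, while PHYC wild-type and phyC-null points overlap for each locus.

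Of the GA 2-oxidases, which remove active gibberellin, all 3 were also higher in phyB-null, from a wild-type level of a few reads. GA2ox-A6 had 2, 1, 0 and 4 reads in the wild-type libraries of experiment 1 and 2, 2, 4 and 0 in those of experiment 2. The null libraries held 32.8, 31.3, 24.5 and 17.9 normalized counts in experiment 1 and 44.8, 32.4, 35.2 and 32.4 in experiment 2. The groups stayed apart in both experiments, with log2 fold changes of 3.66 ± 0.51 and 4.36 ± 0.44.

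GA2ox-A11 had 1 to 3 reads per wild-type library in experiment 1 and 2 to 6 in experiment 2. Its null libraries held 38.0, 27.8, 25.9 and 32.8 normalized counts in experiment 1 and 65.5, 58.9, 36.5 and 29.4 in experiment 2. No libraries overlapped, and the log2 fold change was 3.72 ± 0.34 and 3.90 ± 0.38.

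GA2ox-B11 was at or next to 0 in PHYB wild type, with 0, 0, 2 and 1 reads in experiment 1 and 1, 0, 0 and 0 in experiment 2. The null libraries held 39.7, 39.2, 21.8 and 24.6 normalized counts in experiment 1 and 40.7, 25, 29.1 and 25.8 in experiment 2. All null libraries were thus above all wild-type libraries. With 3 and 1 wild-type reads the fold is set by the wild type: the scaled ratio of summed reads was 35.3 (exact 95% interval 11.9 to 173) in experiment 1 and 145 (25.7 to 5762) in experiment 2. Such intervals cover counting error only.

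**Figure D2:**
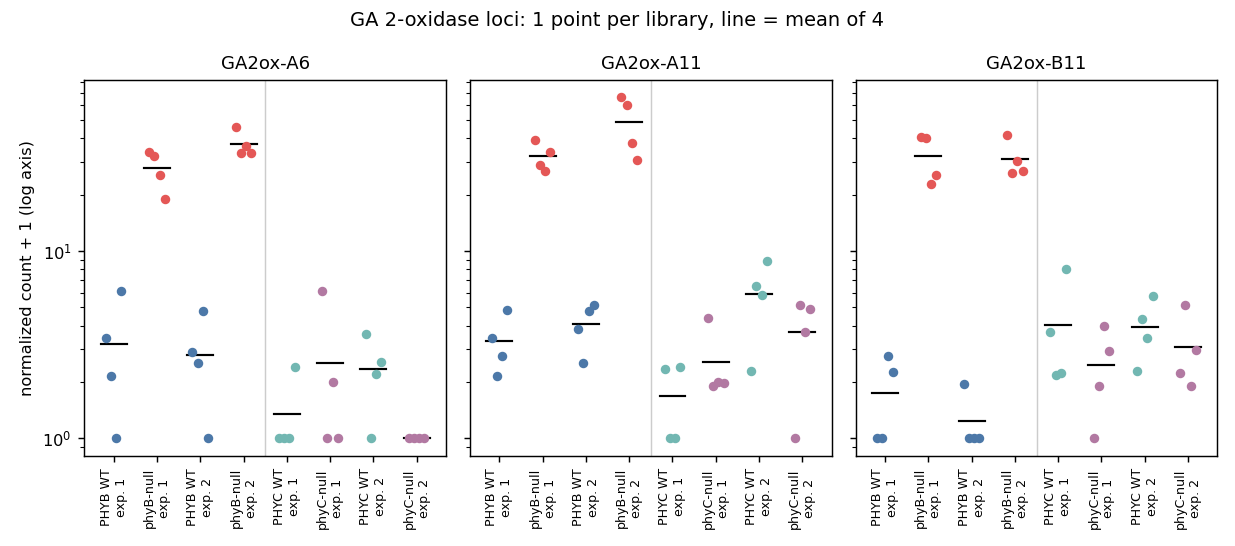
Normalized count plus 1 (log axis) of the 3 GA 2-oxidase loci in each library, by group; each point is 1 library and the line is the mean of 4. Points of the phyB-null groups lie between 17.9 and 65.5 normalized counts and the other groups stay below 10, with GA2ox-A6 at 0 in the 4 phyC-null libraries of experiment 2.

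All 7 loci passed the quasi-likelihood test of edgeR in both PHYB experiments, at an adjusted P of 0.01, where 9.41% and 11.6% of all loci tested did. Loci called higher in phyB-null were 3.98% and 5.83% of all loci tested, and 2.13% of the loci tested in both experiments were higher in both. The members' adjusted P ran from 1.36e-09 to 0.000510 in experiment 1 and from 4.69e-10 to 0.000196 in experiment 2. Since the loci were listed for passing such a test, these counts describe the choice. So does the lack of overlap between null and wild-type libraries, whose share over all loci was not counted. The members' median log2 fold change was 5.03 and 4.58, against 0.03 and 0.00 for all loci tested.

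Per kilobase of locus, GA20ox-A1 led the 4 listed GA 20-oxidase loci in PHYB wild type and GA20ox-B2 led them in phyB-null. Shares are of these 4 loci, which were listed for their phyB-null levels, and not of all GA 20-oxidase RNA: the GA20ox1 locus on 5BL, outside the list, held 33.5 ± 26.3 and 90.1 ± 36.2 normalized counts per kilobase in PHYB wild type and 145 ± 21.6 and 142 ± 24.6 in phyB-null. In PHYB wild type GA20ox-A1 held 79.3% ± 3.08 (SD, n = 4) of the summed per-kilobase level of the 4 GA 20-oxidase loci in experiment 1 and 79.5% ± 5.30 in experiment 2. In phyB-null its share was 23.7% ± 3.62 and 15.9% ± 1.59. GA20ox-B2 held 16.7% ± 1.49 and 12.3% ± 3.09 in wild type and 68.0% ± 5.01 and 69.4% ± 5.87 in phyB-null. The summed level of the 4 loci was 22.1 ± 7.0 and 55.7 ± 16.6 normalized counts per kilobase in wild type, and 696 ± 26.0 and 1159 ± 79.5 in phyB-null. The summed level of the 3 GA 2-oxidase loci was 3.55 ± 2.15 and 3.61 ± 1.22 in wild type, and 64.9 ± 13.3 and 82.1 ± 21.2 in phyB-null.

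The order of the 7 loci by level per kilobase differed likewise. In PHYB wild type GA20ox-A1 came first in both experiments (17.5 ± 5.35 and 44.4 ± 14.7 normalized counts per kilobase) and GA20ox-B2 second (3.70 ± 1.30 and 6.49 ± 0.461), and the other 5 loci lay between 0.202 and 3.07, with neighbours in that order less than the sum of their SDs apart. In phyB-null GA20ox-B2 came first (474 ± 49.5 and 801 ± 44.0) and GA20ox-A1 second (164 ± 19.5 and 184 ± 19.0). In experiment 1 the next 4 loci, GA20ox-B4, GA20ox-A4, GA2ox-B11 and GA2ox-A11, lay between 26.4 and 29.1 normalized counts per kilobase and did not differ beyond their SDs. In experiment 2 these loci lay further apart, with GA20ox-A4 at 104 ± 43.6, GA20ox-B4 at 69.8 ± 37.1, GA2ox-A11 at 40.4 ± 14.7 and GA2ox-B11 at 25.7 ± 6.17. There each was less than the sum of the SDs from its neighbour, but GA20ox-A4 and GA2ox-B11 were further apart than that. GA2ox-A6 was last in phyB-null in both experiments (11.8 ± 3.03 and 16.0 ± 2.60). Levels per kilobase use the locus span and so understate loci with long introns.

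In phyC-null leaves none of the 7 loci passed the test in either experiment, which their listing as specific to phyB-null largely fixed. In experiment 1 the filter on low counts left 5 members, of which 0 were called (1.64% of all loci were), 3 had an unadjusted p under 0.05 and 1 was called by DESeq2. In experiment 2 it left 6, of which 0 were called (background 1.04%), 1 had an unadjusted p under 0.05 and 0 were called by DESeq2. The median log2 fold change of the tested members was -1.50 in experiment 1 and -0.13 in experiment 2, against 0.01 for all loci in both.

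The fitted differences of GA20ox-A1, GA20ox-A4 and GA20ox-B4 had opposite signs in the 2 experiments of the PHYC lines. GA20ox-A1 held 119, 17.9, 63.9 and 68.4 normalized counts in PHYC wild type of experiment 1 and 28.1, 17.3, 16.9 and 14.5 in phyC-null. The groups overlapped through wild-type replicate 2 alone. The log2 fold change was -1.79 ± 0.45, with an adjusted P of 0.0397, which misses the threshold of 0.01. Without that library it was -2.10 with an adjusted P of 0.000764, and DESeq2 gave 0.00348. In experiment 2 the wild type held 89.6, 34.3, 57.0 and 25.2 and the null 65.9, 128, 39.4 and 19.5, with complete overlap and a log2 fold change of 0.29 ± 0.48 (adjusted P = 0.843). Without null replicate 2 that value was -0.27.

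GA20ox-A4 held 38.0, 10.7, 7.38 and 11.2 normalized counts in PHYC wild type of experiment 1 and 11.1, 0.910, 6.97 and 3.86 in phyC-null, a log2 fold change of -1.50 ± 0.63 (adjusted P = 0.192). In experiment 2 the wild type held 10.4, 1.11, 14.6 and 4.72 and the null 14.9, 43.2, 18.8 and 1.95, a log2 fold change of 1.38 ± 0.67 (adjusted P = 0.363). Here the null, and not the wild type, held the library that stood highest.

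GA20ox-B4 gave the same picture with a wider spread. It held 75.9, 2.38, 20.9 and 9.77 normalized counts in PHYC wild type of experiment 1 and 15.4, 0, 1.99 and 2.90 in phyC-null (log2 fold change -2.33 ± 0.95, adjusted P = 0.180). In experiment 2 it held 6.50, 6.64, 29.1 and 9.44 in wild type and 23.6, 79.5, 19.7 and 3.91 in phyC-null (1.28 ± 0.68, adjusted P = 0.410). In both experiments the groups overlapped.

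GA20ox-B2, which was 123-fold or more above wild type in phyB-null, stayed at a low level in the phyC line. Its 16 PHYC-line libraries lay between 3.57 and 24.7 normalized counts. The log2 fold change in phyC-null was -0.38 in experiment 1 (approximate 95% interval -1.25 to 0.50). In experiment 2 it was -0.87 (-1.51 to -0.23, edgeR adjusted P = 0.222). The intervals use a normal approximation, which is too narrow for so few libraries, and the listing used this contrast. No limit on a rise is therefore drawn from them.

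The GA 2-oxidases were near their detection limit in the PHYC lines. GA2ox-A6 had 1 read in the 4 PHYC wild-type libraries of experiment 1 and 7 in phyC-null, a scaled ratio of 5.04 (exact 95% interval 0.648 to 227). In experiment 2 it had 4 against 0 reads, a null count of 0 that allows up to 3 reads. It was too low for the test in experiment 1 and in experiment 2. GA2ox-A11 had 2 reads in wild type against 7 in phyC-null in experiment 1, where it was too low for the test (scaled ratio 2.52, 0.480 to 24.9), and 15 against 8 in experiment 2 (log2 fold change -0.87 ± 0.69). GA2ox-B11 had 9 reads in wild type against 6 in phyC-null in each experiment (-0.99 ± 0.85 and -0.55 ± 0.68).

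**Figure D3:**
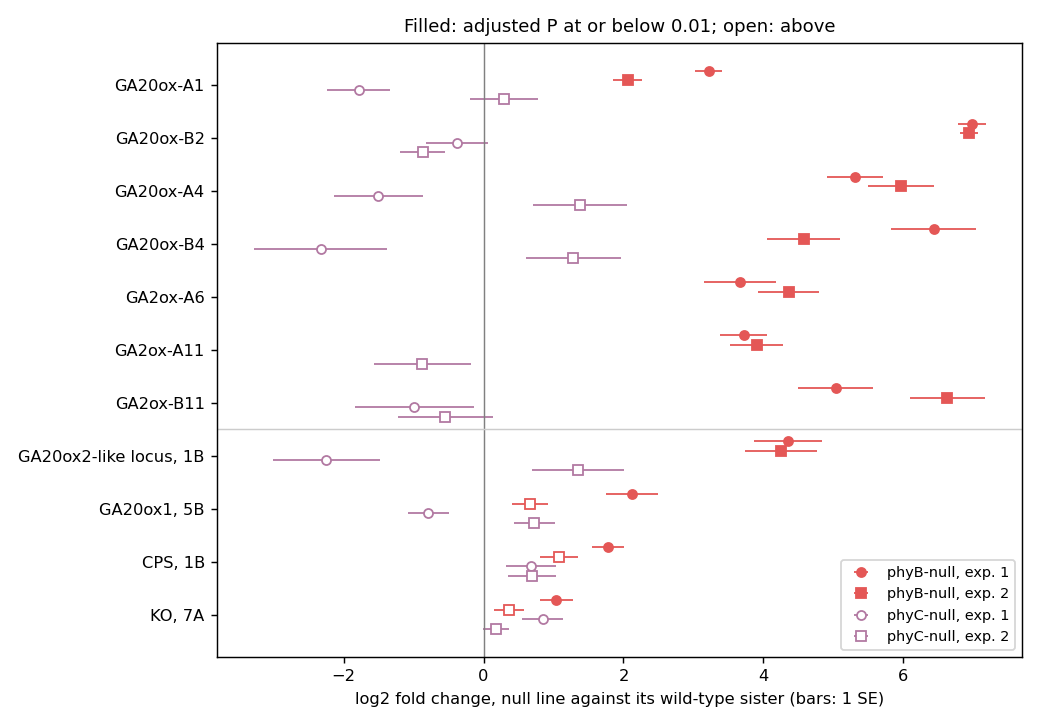
Log2 fold change (x axis, bars 1 SE) of each null line against its wild-type sister for the 7 loci above the line and for 4 other gibberellin pathway loci below it; filled symbols passed an adjusted P of 0.01, circles are experiment 1 and squares experiment 2. The 14 member values in phyB-null lie between 2.06 and 6.98 and all are filled, whereas no phyC-null symbol is filled and loci with too few reads have none.

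The difference between the phyB-null and phyC-null effects, averaged over the experiments in a fit of all 32 libraries, passed the test for 6 of the 7 loci (background 5.95% in either direction, 2.59% with a higher phyB-null effect). Since the loci were listed as changed in phyB-null and not in phyC-null, this too describes the choice. The difference was 7.59 ± 0.29 (log2) for GA20ox-B2, 6.56 ± 0.76 for GA2ox-B11, 6.02 ± 0.91 for GA20ox-B4, 5.69 ± 0.71 for GA20ox-A4 and 3.39 ± 0.41 for GA20ox-A1, each with an adjusted P of 2.18e-05 or lower. For GA2ox-A11 it was 3.66 ± 0.94 with an adjusted P of 0.00891, which rose to between 0.0255 and 0.117 when any of the replicate numbers 1 to 4 was left out. For GA2ox-A6 it was 4.80 ± 1.80 with an adjusted P of 0.0859 in edgeR and 0.000294 in DESeq2, the phyC-null libraries of experiment 2 holding no read.

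Other genes of the pathway can be named only where the supplementary annotation does so, which covers loci called in phyB-null, so their number is no measure of the pathway. There are 4 of them. In phyB-null 4 of the 4 passed the test in experiment 1 and 1 of the 4 in experiment 2, all called higher. In phyC-null 0 of the 4 passed in either experiment. The shares of all loci called are those given above for the members (3.98% and 5.83% higher in phyB-null, 1.64% and 1.04% in phyC-null), and since these loci too are named because they were called in phyB-null, nothing is read from the counts. Traes_1BL_BCA1AABF7, the GA20ox2-like fragment beside GA20ox-B4, rose with it (log2 fold change 4.36 ± 0.48 and 4.25 ± 0.52, edgeR adjusted P = 0.000101 and 0.000297). As it may be part of the same gene, it is no separate observation. Traes_5BL_D412D28CC, annotated as GA20ox1 on chromosome arm 5BL, held 68.9 ± 54.1 normalized counts in wild type and 298 ± 44.5 in phyB-null in experiment 1 (log2 fold change 2.12 ± 0.37, adjusted P = 0.00203). In experiment 2 it held 185 ± 74.5 and 291 ± 50.6 (0.66 ± 0.26, adjusted P = 0.0917). Its null means thus lay close together and its wild-type mean was higher in experiment 2, which missed the threshold (log2 difference 1.43 ± 0.37, adjusted P = 0.0241).

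The other 2 loci act upstream of the GA 20-oxidases. Traes_1BS_8A9B3CE82 encodes ent-copalyl diphosphate synthase (CPS), the enzyme of the first committed step. It held 24.7 ± 9.06 normalized counts in PHYB wild type and 85.7 ± 8.36 in phyB-null in experiment 1 (log2 fold change 1.77 ± 0.23, adjusted P = 0.000296), and 34.2 ± 14.2 and 72.5 ± 14 in experiment 2 (1.08 ± 0.27, adjusted P = 0.0166). Traes_7AL_73FE321EC encodes ent-kaurene oxidase (KO), which acts 2 steps later. It held 322 ± 125 and 668 ± 76.6 in experiment 1 (1.04 ± 0.23, adjusted P = 0.00856) and 490 ± 165 and 634 ± 113 in experiment 2 (0.37 ± 0.22, adjusted P = 0.251). For these 4 loci no change of the phyB-null effect between the experiments passed the test (edgeR adjusted P = 0.287 or higher).

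The neighbours of the other members were mostly silent. contig08626, which lies 1517 bases beyond GA20ox-B2, was expressed in every group and rose 1.90-fold and 1.86-fold in phyB-null (log2 0.92 ± 0.16 and 0.90 ± 0.15, adjusted P = 0.00207 and 0.00167), against the 126-fold and 123-fold of GA20ox-B2. The other neighbours, 1 beside GA20ox-A1 and a pair beside GA2ox-A6, held at most 4 reads in any library.

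Between the PHYB experiments, within wild type, GA20ox-A1 was the only member called by edgeR. Its PHYB wild-type mean was 35.8 ± 11 normalized counts in experiment 1 and 90.9 ± 30.2 in experiment 2, with no overlap (log2 difference 1.33 ± 0.22, adjusted P = 0.00176, against 2.56% of all loci called). GA20ox-B2 (0.80 ± 0.19, adjusted P = 0.0300) and GA20ox-B4 (3.13 ± 1.06, adjusted P = 0.0831) were also higher without overlap, and missed the threshold. DESeq2 called GA20ox-B4 (adjusted P = 0.00350). The share of all loci without overlap between the experiments was not counted, in wild type or in phyB-null. Leaving out replicate number 1 or 3 took the adjusted P of GA20ox-A1 to 0.0193 and 0.0387.

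Within phyB-null the difference of GA20ox-A1 between the experiments did not pass the test (336 ± 39.8 and 377 ± 38.8 normalized counts, log2 difference 0.16 ± 0.19, adjusted P = 0.905). There GA20ox-B2 was higher in experiment 2, 2596 ± 143 against 1537 ± 161 normalized counts without overlap (0.75 ± 0.12, adjusted P = 0.00884, where 0.0653% of all loci were called). GA20ox-A4 (1.84 ± 0.31, edgeR adjusted P = 0.0146) and GA20ox-B4 (1.26 ± 0.40, adjusted P = 0.318) were also higher in experiment 2 without overlap, and missed the threshold. The call of GA20ox-B2 was lost when any replicate number was left out, with an adjusted P of 0.0239 to 0.165. The genotype effect of GA20ox-A1 was smaller in experiment 2 by 1.17 ± 0.29 on the log2 scale. That interaction had an unadjusted p of 0.000849 from edgeR and an adjusted P of 0.128, and 0 members passed (0.00458% of all loci did, 1 member had an unadjusted p under 0.05, and DESeq2 called 0).

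Between the PHYC experiments the genotype effects of GA20ox-A1, GA20ox-A4 and GA20ox-B4 differed by 2.08 ± 0.73, 2.88 ± 1.01 and 3.61 ± 1.28 on the log2 scale, each being negative in experiment 1 and positive in experiment 2. The neighbouring 1B locus (3.60 ± 1.10), which may be part of the same gene as GA20ox-B4, and the GA20ox1 locus on 5BL (1.52 ± 0.45) did the same. None of these interactions passed the test, with adjusted P from edgeR of 0.271 to 0.351. Of the 6 members tested 0 were called (0.0172% of all loci were), 3 had an unadjusted p under 0.05 and DESeq2 called 0. GA20ox-B2 did not share the pattern, its log2 fold change being negative in both experiments. No member was called between the experiments within PHYC wild type (background 2.03%, 1 unadjusted p under 0.05, 0 in DESeq2) or within phyC-null (1.92%, 3 and 0). The chambers of the PHYC experiments differed in their ballasts, and chamber and experiment cannot be told apart.

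Within groups, the libraries in which GA20ox-A4 stood high were largely those in which GA20ox-B4 stood high. In 6 of the 8 groups, all but PHYB wild type and phyB-null of experiment 1, both had their highest normalized count in the same library. In 5 of the 8 the neighbouring 1B locus, possibly part of the same gene as GA20ox-B4, had its highest where GA20ox-B4 had. GA20ox-A1 also peaked in the shared library in 4 groups, and GA20ox-B2 in 1. Examples are replicate 2 of phyB-null in experiment 2 (470 for GA20ox-A4 and 453 for GA20ox-B4, the next libraries being 275 and 231), replicate 1 of PHYC wild type in experiment 1 (38.0 and 75.9, next 11.2 and 20.9) and replicate 2 of phyC-null in experiment 2 (43.2 and 79.5, next 18.8 and 23.6). Without replicate 1 of PHYC wild type the log2 fold change in phyC-null in experiment 1 was -0.74 for GA20ox-A4 and -1.05 for GA20ox-B4, and without replicate 2 of phyC-null that in experiment 2 was 0.78 and 0.38. These values kept their signs, whereas that of GA20ox-A1 in experiment 2 did not. How often other pairs of loci peak in the same library was not counted, so the counts of shared peaks have no background.

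**Figure D4:**
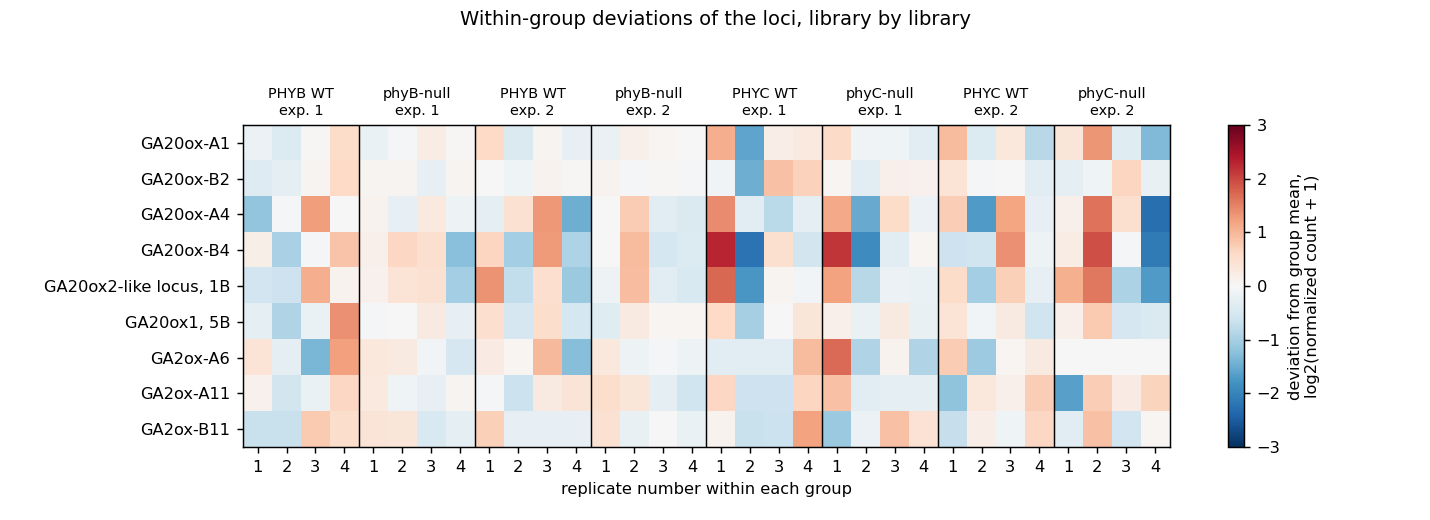
Deviation of each library from its group's mean, on the scale of log2(normalized count + 1), for the members and the 2 further GA 20-oxidase loci (rows) in the 32 libraries (columns, by group and replicate number); red is above and blue below the mean. GA20ox-A4, GA20ox-B4 and the neighbouring GA20ox2-like locus are red together in replicate 2 of phyB-null experiment 2, replicate 1 of PHYC wild type experiment 1 and replicate 2 of phyC-null experiment 2.

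The balance between homoeologues was taken as the A-genome share of the reads of a pair in each library, which needs no scaling between libraries but uses the same reads as the phyB-null contrast. The shares of the PHYB lines are therefore a description, and the test run on them is not reported here. For GA20ox-A4 and GA20ox-B4 the mean share was 42.2% ± 35.3 (SD, n = 8 libraries) in PHYB wild type and 50.0% ± 10.3 in phyB-null, over 83 and 4065 reads. The difference was 7.85 percentage points, and -6.73 points when only libraries with at least 5 reads were used. In the PHYC lines the shares were 42.1% ± 21.9 and 54.1% ± 23.5. They did not pass an exact two-sided permutation test with genotypes permuted within experiments (p = 0.258). Adjusted by Benjamini-Hochberg over 4 tests, those of the PHYB lines included, that p was 0.515. With the neighbouring 1B locus added to GA20ox-B4, the A share was 24.5% ± 18.1 in PHYB wild type and 39.2% ± 9.28 in phyB-null. In the PHYC lines it was then 30.6% ± 17.9 in wild type and 37.4% ± 15.3 in phyC-null.

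For GA2ox-A11 and GA2ox-B11 the A copy held the larger share in PHYB wild type, 87.5% ± 18.9 (n = 8), and the copies were near equal in phyB-null, 55.3% ± 8.46 (n = 8). The difference of -32.2 percentage points rests on 27 wild-type reads, 23 from the A and 4 from the B copy, with 1 to 6 reads of the pair in a library, against 430 and 333 reads in phyB-null, and it could not be taken with a minimum of 5 reads. Wild-type libraries ran from 50% to 100% and null libraries from 41.6% to 70.2%, so single libraries overlapped. In the PHYC lines the A copy held 36.5% ± 28.1 in wild type and 50.0% ± 31.2 in phyC-null (exact p = 0.395, adjusted 0.527), over 35 and 27 reads. Reads that fit both homoeologues equally well were discarded before counting, so the shares describe the distinguishable reads.

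Between the wild-type sisters 1 member passed the test. The PHYB wild-type libraries are an arm of the contrast for which the loci were listed, so a low level there favoured the choice and the values are a description. GA2ox-B11 was lower in PHYB wild type than in PHYC wild type (log2 difference -2.44 ± 0.65, adjusted P = 0.00471), on 4 against 18 reads over 8 libraries each. Leaving out replicate number 2 or 4 took its adjusted P to 0.0335 and 0.107. GA20ox-A4 (-1.88 ± 0.60, adjusted P = 0.0172) and GA20ox-B4 (-2.37 ± 0.79, adjusted P = 0.0233) lay in the same direction and missed the threshold. The other members did not. GA20ox-A1 (-0.05 ± 0.29) and GA20ox-B2 (-0.03 ± 0.20) hardly differed. GA2ox-A6 (1.29 ± 0.84) and GA2ox-A11 (0.50 ± 0.52) were higher in PHYB wild type without passing the test. Of all loci 17.9% were called between the sisters, among them the CPS locus (1.32, adjusted P = 0.000128) and the KO locus (0.89, adjusted P = 0.000794), both higher in PHYB wild type. The low wild-type level of GA2ox-B11, GA20ox-A4 and GA20ox-B4 in the PHYB line enters their phyB-null fold changes. Against the PHYC wild types, the phyB-null levels of GA2ox-B11 (31.3 and 30.1 normalized counts) face 3.03 and 2.94 in place of 0.755 and 0.237.

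The loci whose pattern over the 32 libraries was most like the mean of the 7 members were sought among 52560 loci with a mean of at least 10 normalized counts, by Pearson correlation of log2(normalized count + 1). The libraries share their groups, and the pattern is led by the 8 phyB-null libraries, so the values are a description. The closest was Traes_2AL_EF9549D16 (r = 0.964), listed by the study as ATHB2-A, a homeobox leucine zipper gene whose Arabidopsis relative responds to shade. It held 22.9 and 18.1 normalized counts in PHYB wild type, 496 and 584 in phyB-null and 11.8 to 36.0 in the PHYC groups. The next 3 were Traes_1BL_04A637384 (r = 0.963), Traes_2BL_336B91201 (r = 0.954) and isotig29116 (r = 0.953). The last of the 5 was Traes_4BL_AC29E521A (r = 0.953), annotated as similar to a cytochrome P450 of the CYP714B family, of which rice members oxidize gibberellins. It held 204 and 212 normalized counts in PHYB wild type, 1242 and 1262 in phyB-null and 204 to 260 in the PHYC groups. The 5 loci had r between 0.953 and 0.964. The members' own r with their mean ran from 0.899 to 0.966. Each member is part of that mean and the 5 loci are not, so these ranges cannot be compared. With Spearman's correlation none of these 5 was among the first 5, ATHB2-A ranking 27 and the CYP714B-like locus 431. With a pseudocount of 10 the first 5 shared 3 of them, ATHB2-A ranking 4 and the CYP714B-like locus 11.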

How the data were processed

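The authors mapped trimmed reads with GSNAP to the A and B chromosome arms of the IWGSC version 2.2 assembly, discarded reads without a unique position and counted the rest with HTSeq; the deposited values are raw counts per transcribed locus in 32 libraries, and no strand is marked. The 7 members and the other lists were chosen with earlier results of these data known. Counts were tested in edgeR 4.0.16 (R 4.3.3, quasi-likelihood) with median-of-ratios (RLE) factors, on loci that reached 3 reads in 2 or more libraries. Benjamini-Hochberg adjustment ran over all loci tested, with a threshold of 0.01. The study required that threshold in both DESeq and edgeR, so its calls are not the same as these. Each null was set against its sister by experiment, with other contrasts in fits of a line's 16 libraries or of all 32. The SE is the log2 fold change divided by the root of its F. Levels are normalized over the 32 libraries. Named are the members, loci on their scaffolds or within 20000 bases, annotated gibberellin loci, PHYB-A and the 5 most similar loci. Alternatives were TMM factors, unscaled totals, other filters, DESeq2 1.42.0, a replicate block, a threshold of 0.05 and libraries left out. Of 48 within-group pairs of libraries none was counted as 1 sample (chi-square per locus 1.36 to 61.5). The tests were tested on simulated data.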

Additional observations from a re-analysis of the deposited data

Results flagged for a closer look

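The highest or lowest library of 4 stood apart by Dixon's test at its 95% critical value in 7 of 55 sets of 1 member and 1 group. A chance rate of about 1 in 20 holds for normally distributed values only. Many sets hold counts near 0, where a single read among zeros is always flagged, so that rate is no yardstick here. GA20ox-B2 was low in replicate 3 of phyB-null in experiment 1 (1297 normalized counts, next 1607) and high in replicate 3 of phyC-null in experiment 2 (15.2, next 8.36). GA20ox-A4 was high in replicate 1 of PHYC wild type in experiment 1 (38.0, next 11.2), and GA20ox-B4 in replicate 3 of PHYC wild type in experiment 2 (29.1, next 9.44). The other cases are differences of 1 to 3 reads: GA2ox-A6 in replicate 4 of PHYC wild type in experiment 1 (1.40, next 0), GA2ox-A11 in replicate 1 of phyC-null in experiment 1 (3.41, next 0.995) and GA2ox-B11 in replicate 1 of PHYB wild type in experiment 2 (0.947, next 0).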

How the results depend on the processing

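All 7 members were called in phyB-null under each of 15 alternatives in each experiment (highest adjusted P = 0.00484). Of 653 alternative values of single members, 622 kept their direction and side of the threshold. They cover null against wild type and the difference of the null effects. From other contrasts only members with an unadjusted edgeR p under 0.05 enter, and GA20ox-A1 between phyB-null experiments. The listing largely fixed the phyB-null values. GA20ox-A1 in phyC-null in experiment 2 changed sign, running from -0.27 to 0.69 over libraries left out. Other signs changed outside these values. GA2ox-A6 between PHYB wild types of the experiments ran from -1.36 to 1.05, and GA20ox-B4 between PHYC wild types from -1.94 to 0.47. In phyC-null, experiment 1, 1 member in place of 0 was called with no filter, with DESeq2, at a threshold of 0.05, and in 0 to 1 over libraries left out. Between PHYB wild types of the experiments DESeq2 and the threshold of 0.05 each called 2 in place of 1, and 0 to 1 were called with replicate numbers left out. Between phyB-null experiments no filter, DESeq2 and the threshold of 0.05 each called 2 in place of 1, unscaled totals called 0, and leaving out any replicate number called 0. Between the sister wild types DESeq2 and the threshold of 0.05 each called 3 in place of 1, and 0 to 1 were called with replicate numbers left out. The causes were not tested.

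The share difference of GA20ox-A4 and GA20ox-B4 in the PHYB lines ran from -3.30 to 23.1 points over replicate numbers left out and was -6.73 with a minimum of 5 reads, a minimum under which the GA2ox pair could not be tested. With the neighbouring 1B locus added to GA20ox-B4, a choice made after seeing the data like the unscaled totals, it was 14.7.

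The replicate numbers did not pair the samples (3 of 16 same-numbered pairs had a correlation of deviations over 0.1, range -0.336 to 0.135). With a replicate block 0 members in place of 1 were called between phyB-null experiments (GA20ox-B2, adjusted P = 0.0343) and 5 in place of 6 for the difference between the null effects (GA2ox-A11, adjusted P = 0.0120). It changed no other count.

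With unscaled totals the median log2 value of all loci was up to 0.36 (phyC-null, experiment 1, against 0.01 with the factors), which changed no direction of a called member. Loci with a few reads in wild type limit the precision of the GA 2-oxidase folds, and 4 replicates in 2 experiments limit the interaction terms.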
